A study of Mus musculus with 15 samples.

Results

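The subject was a list of 37 genes of homologous recombination and other DNA repair pathways, followed in cultured stromal cells of the mouse heart. Members were chosen by name, and each gene was read from the probe set that names only that gene and has the highest mean over 15 arrays. In this way 36 of the 37 genes were measured, out of 19938 genes on the array with such a probe set, and Xrcc2 was not analysed here. Members were divided by textbook knowledge into 18 measured genes whose transcripts are known to accumulate around S phase, called S-phase-coupled below, and 18 others. This split was made with earlier results of these data known, so a contrast between the classes is a description. Placement was borderline for Ung, Msh6, Topbp1, Fancb and Rad54b among the S-phase-coupled members and for Palb2, Xrcc3, Chek2 and Parp1 among the others.

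The cells were cardiac colony-forming unit fibroblasts (cCFU-F), stromal cells that grow as colonies when plated sparsely. Per the labels they came from male C57BL/6 mice of 12 weeks and were sorted as SCA1+PDGFRα+CD31-, with no engineered allele named. Each of 5 groups had 3 arrays. Large colonies, all untreated, were taken at passages 5 and 15. Small colonies were taken at passage 5 without treatment, and at passages 5 and 15 under PDGF-AB at 50 ng/ml. PDGF-AB is a platelet-derived growth factor that binds the PDGF receptors. Since the small colonies of passage 15 were all treated, effects of size and of PDGF-AB cannot be told apart at that passage, nor wherever treated small colonies are set against large ones. Whether the replicates were separate cultures or mice is not given in the labels, and p-values therefore cover only the spread from array to array, which could be technical.

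Homologous recombination repairs broken chromosomes by copying the sister chromatid. It therefore works in cells that have replicated their DNA, and many of its genes are transcribed with the replication genes, under E2F factors that are held in check by the RB family in resting cells. End joining, which ligates broken ends directly, and the excision pathways, which replace damaged bases or short stretches, act throughout the cell cycle, and most of their genes are transcribed in resting cells too.

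Values are log2 intensities, 1 unit being a factor of 2, and changes are log2 differences with the SE of a limma fit over all arrays. A change is called where its p-value from limma, adjusted over all 19938 genes, lies under 0.05. Array medians lay between 5.59 and 5.72, and r across genes was at least 0.997 within groups. The median of all gene means was 6.02, and 15 of the 18 S-phase-coupled members but only Palb2 among the other 18 had a mean below it, so fold changes of these dim genes may be compressed by array background. Xist lay between 8.93 and 10.88 and 3 Y-linked genes between 2.24 and 3.40 in all arrays, against the label male, and no result below uses sex. Thy1, a stromal surface marker, had group means of 10.33 and 10.63 in large colonies and of 5.11 to 5.49 in small ones. None of 7 endothelial and 1 of 8 leukocyte markers had a mean above the median gene level, and Pecam1, which encodes CD31, had group means of 4.29 to 4.59. In such bulk samples, fewer cells that express a gene and less RNA per cell cannot be told apart.

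Promoters of Brca2, Bard1 and Clspn are shown first, beside those of the 2 members that changed least in large colonies. Brca2, Bard1 and Clspn were picked for holding letters of the E2F site. Among the S-phase-coupled members that hold them they rose most in large colonies. Of the 36 measured members 30 had a promoter, 32 windows in all, in the RefSeq table for GRCm38.p6. A window holds 250 bases before and 50 after a start that the table gives for the gene. That start can lie inside the annotated gene: the span of Brca2 begins at 150522297, before its window. Letters of the E2F site (TTTGGCGC, TTTCCCGC, TTTGCCGC or TTTCGCGC, on either strand) were present in 5 of 16 windows of S-phase-coupled members (31.2%), those of Bard1, Brca2, Clspn, Msh6 and Topbp1. They were present in 2 of 16 windows of other members (12.5%), those of Chek2 and Xrcc6, and in 2.26% of all 32851 windows of the table. CCAAT, on either strand, was in 62.5% of the windows of each class and in 37.4% of all. The CHR letters TTTGAA or TTCGAA, on either strand, were in 6.25% of the windows of each class and in 19.2% of all. The E2F letters were absent from the windows of Brip1, Brca1, Rad51ap1, Chek1 and Fanci. In large colonies these genes rose more than Brca2, Bard1 and Clspn, whose windows are printed. The windows of Brca2 (chr5:150522371-150522670, plus strand), Bard1 (chr1:71102923-71103222, minus strand) and Clspn (chr4:126556730-126557029, plus strand) stand for S-phase-coupled members with the E2F letters, which are in capitals and begin at -168, -209 and 21 bases from the start. Those of Xpa (chr4:46196262-46196561, minus strand) and Ogg1 (chr6:113326726-113327025, plus strand) stand for the members that changed least with passage in large colonies, although Xpa was called in treated small ones, and neither holds the E2F letters.
Brca2: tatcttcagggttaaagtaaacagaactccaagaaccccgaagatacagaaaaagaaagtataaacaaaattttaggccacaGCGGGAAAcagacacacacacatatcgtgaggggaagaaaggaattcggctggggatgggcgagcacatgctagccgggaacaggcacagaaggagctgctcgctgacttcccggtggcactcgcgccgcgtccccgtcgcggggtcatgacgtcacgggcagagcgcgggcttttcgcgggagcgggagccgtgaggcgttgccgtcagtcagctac
Bard1: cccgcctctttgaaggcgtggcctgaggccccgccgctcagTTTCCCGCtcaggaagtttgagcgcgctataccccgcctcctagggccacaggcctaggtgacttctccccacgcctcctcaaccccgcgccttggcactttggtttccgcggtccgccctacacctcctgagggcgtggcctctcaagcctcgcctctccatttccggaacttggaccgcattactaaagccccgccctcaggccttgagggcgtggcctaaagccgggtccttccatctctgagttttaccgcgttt
Clspn: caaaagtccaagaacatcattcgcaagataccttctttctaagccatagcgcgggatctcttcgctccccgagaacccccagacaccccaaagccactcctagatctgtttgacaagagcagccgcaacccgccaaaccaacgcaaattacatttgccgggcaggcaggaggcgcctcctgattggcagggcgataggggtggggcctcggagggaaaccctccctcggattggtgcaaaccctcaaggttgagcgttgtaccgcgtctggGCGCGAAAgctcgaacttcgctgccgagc
Xpa: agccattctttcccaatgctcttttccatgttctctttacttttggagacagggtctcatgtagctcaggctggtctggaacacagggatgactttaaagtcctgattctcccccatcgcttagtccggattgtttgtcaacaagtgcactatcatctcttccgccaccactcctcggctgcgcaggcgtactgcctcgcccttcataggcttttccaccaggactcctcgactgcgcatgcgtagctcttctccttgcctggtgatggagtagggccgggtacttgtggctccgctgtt
Ogg1: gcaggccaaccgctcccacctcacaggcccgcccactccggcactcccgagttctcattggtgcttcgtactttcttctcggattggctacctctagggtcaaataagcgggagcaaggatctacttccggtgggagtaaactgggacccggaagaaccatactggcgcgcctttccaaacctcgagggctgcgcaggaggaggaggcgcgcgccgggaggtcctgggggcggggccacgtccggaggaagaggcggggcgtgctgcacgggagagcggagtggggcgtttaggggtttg

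With passage the S-phase-coupled members rose more at the median than the others, and the classes overlapped. In untreated large colonies, from passage 5 to passage 15, 18 of the 18 S-phase-coupled members rose, 16 of them by at least 2-fold, with a median log2 change of 1.57 and a range of 0.52 to 2.71. Of the other 18 members 12 rose, Lig4 and Xpc fell, and Xrcc5, Ogg1, Ercc1 and Xpa were not called. No other member reached 2-fold, and their median was 0.38. Ung, at 0.519, lay below Chek2, Parp1, Xrcc6, Pms2, Palb2 and, at 0.524, Atm of the other class. Without the borderline members 13 of 13 S-phase-coupled members and 8 of 14 others rose. Over all genes 17.4% were called higher, 18.7% lower and 2.59% higher by at least 2-fold, with a median change of -0.042. Centring the arrays on their medians turned the split over all genes from 3477 higher and 3719 lower to 3068 and 5011, but left 18 S-phase-coupled members called higher. Among genes of at least median level, where 17 of the 18 other members lie, 3164 of 9969 were higher and 3091 lower.

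In treated small colonies the counts over the same passages were alike. By the direct contrast given further on, 8 of the 18 S-phase-coupled members differed in the size of their change. That contrast called 18.6% of all genes higher and 15.9% lower. Again 18 of 18 S-phase-coupled members rose, 16 by at least 2-fold, with a median of 1.49. Of the other members 14 rose, Lig4 fell, Ogg1, Ercc1 and Xpc were not called, and Xrcc5 alone rose by at least 2-fold. The median of the other members was 0.38. Ung, at 0.51, and Msh6, at 0.56, lay below Xrcc5, Atm, Parp1, Chek2, Prkdc, Atr and Xrcc3. Ung also lay below Xrcc6, at 0.55. Xrcc5, at 1.46, lay above Rad54l, Fanca, Rad54b, Chek1, Topbp1 and Clspn as well. Without the borderline members 13 of 13 and 10 of 14 rose. The background was 24.6% of all genes called higher, 21.4% lower and 2.47% higher by at least 2-fold, with a median of 0.051. Centring turned that split from 4910 higher and 4259 lower to 3784 and 4898. Among genes of at least median level 3172 of 9969 were higher and 3831 lower. Calls ended without single arrays for Lig4 without treated small passage 15 replicate 1 or 2 or treated small passage 5 replicate 1 (-0.19 to -0.13), for Wrn without treated small passage 15 replicate 2 or 3 or treated small passage 5 replicate 2 or 3 (0.17 to 0.21) and for Xpa without treated small passage 15 replicate 3 or treated small passage 5 replicate 3 (0.17). The calls of Wrn and Xpa, at 0.15 and 0.16, also ended after centring.

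Some markers of other cell types were also called with passage. Over all genes 17.4% were called higher and 18.7% lower in large colonies, and 24.6% and 21.4% in treated small ones. A count of 1 in a list of 7 or 8 markers is not above these shares. Of 7 pericyte and smooth muscle markers 2 rose and 2 fell in large colonies, with Kcnj8 at 1.53 and Rgs5 at -1.69, and 2 rose and 1 fell in treated small ones, with Cspg4 at 1.51. Of 8 leukocyte markers 1 rose in large colonies, and 3 rose and Lyz2 fell in treated small ones, Lyz2 by a change of -3.58. Of 7 cardiomyocyte markers Tnnt2 fell in both lines, with -0.67 and -1.30, and 1 rose in treated small colonies. Of 7 endothelial markers 1 fell in large and 3 rose in treated small colonies. Over the 15 arrays the mean log2 level of these lists ran from 6.41 to 6.97 for pericyte and smooth muscle, from 4.75 to 5.15 for leukocyte, from 5.22 to 5.80 for cardiomyocyte and from 4.44 to 4.84 for endothelial markers. Of 7 measured stromal markers 5 rose and 2 fell in large colonies and 4 rose and 1 fell in treated small ones, Pdgfra with 2.26 and 0.36. The part of these shifts in the changes of the members was not tested.

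In 17 of the 18 S-phase-coupled members every one of the 6 passage 15 arrays lay above every one of the 9 passage 5 arrays, Msh6 being the exception. The same held for 7 of the 18 other members, namely Palb2, Xrcc3, Pms2, Atr, Chek2, Xrcc1 and Parp1. Over all genes 5.17% showed that separation, and no member showed the opposite one, seen in 5.22% of all genes.

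**Figure D1:**
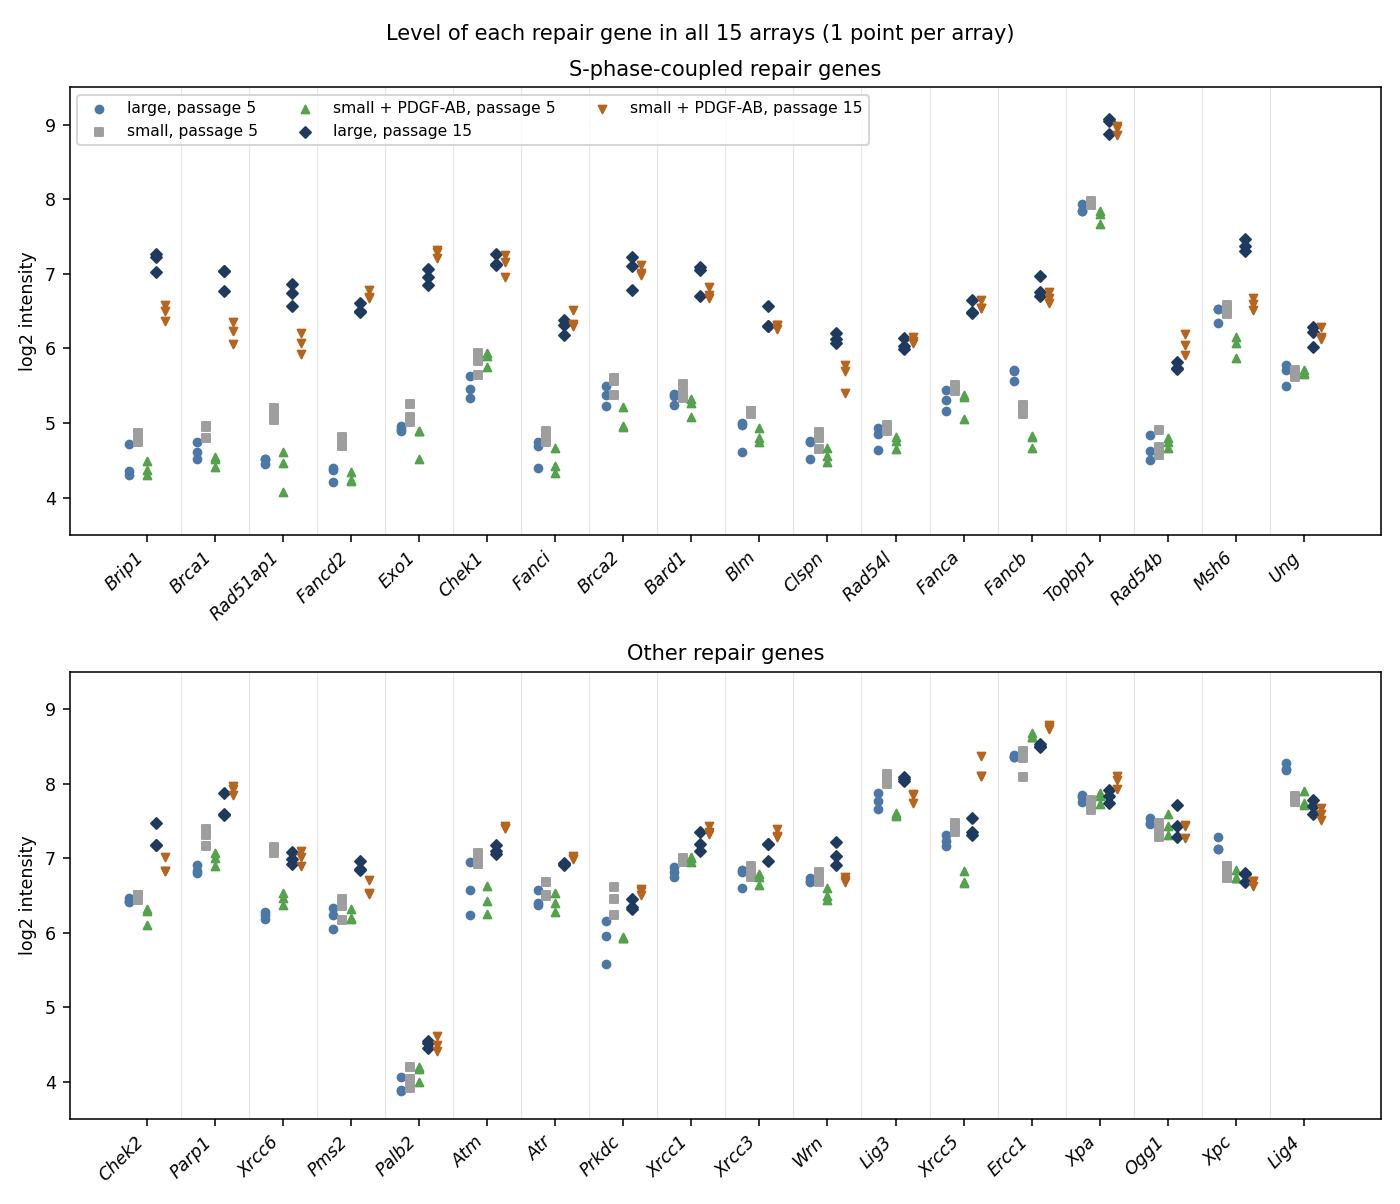
Log2 intensity (vertical axis) of the 36 measured repair genes (horizontal axis, ordered by their passage change in large colonies), 1 point per array and 1 colour and marker per group, 3 arrays each. In the upper panel the 6 passage 15 arrays lie above the 9 passage 5 arrays for 17 of 18 S-phase-coupled genes, and in the lower panel for 7 of 18 other genes.

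Among the core genes of homologous recombination, all 8 that were measured rose with passage in both lines. Brca1 encodes the ubiquitin ligase subunit that favours resection of broken ends. It lay at 4.52, 4.61 and 4.74 in large colonies at passage 5 and at 7.04, 6.77 and 7.04 at passage 15, a change of 2.33 ± 0.0907 (SE, adjusted p = 3.29e-12), or 5.02-fold. Treated small colonies went from 4.54, 4.52 and 4.41 to 6.36, 6.24 and 6.06, a change of 1.73 ± 0.0907 (SE, adjusted p = 1.02e-10). All passage 15 arrays were high, those of large colonies were the highest, and the passages did not overlap in either line.

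Bard1, the partner of Brca1 in that ligase, rose by 1.61 in large and by 1.52 in treated small colonies. It is the member with 3 probe sets of its own: the pair beside the one used gave 0.54 and 1.62 in large colonies and 0.66 and 1.51 in small ones, so 1 of the 3 gave a clearly smaller rise. Palb2, which joins Brca1 to Brca2, was the dimmest member, with a mean of 4.23, and rose by 0.56 and 0.38.

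Brca2 encodes a central mediator of homologous recombination. Its arrays read 5.50, 5.23 and 5.38 in large colonies at passage 5 and 7.11, 6.79 and 7.23 at passage 15, a change of 1.67 ± 0.108 (SE, adjusted p = 2.05e-09). The treated small arrays read 5.21, 4.95 and 4.96 at passage 5 and 7.11, 7.0 and 6.98 at passage 15, a change of 2.0 ± 0.108 (SE, adjusted p = 1.47e-10). At passage 15 the arrays of the lines overlapped. Rad51ap1, whose product promotes strand invasion into the intact duplex, stood at 4.52, 4.52 and 4.45 before and 6.87, 6.56 and 6.74 after passage of large colonies, a change of 2.23 ± 0.114 (SE, adjusted p = 1.08e-10). With PDGF-AB, small colonies stood at 4.47, 4.62 and 4.07 and then at 6.20, 5.92 and 6.07, a change of 1.68 ± 0.114 (SE, adjusted p = 2.91e-09). The third treated array at passage 5 was the lowest of all 15, and at passage 15 every large-colony array was above every small-colony array.

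The DNA-dependent motor proteins of recombination moved less. Rad54l rose by 1.25 in large and 1.37 in treated small colonies, and Rad54b by 1.11 and 1.31. Xrcc3, a recombination gene counted among the other members, rose by 0.36 and 0.60, short of 2-fold.

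Helicases and nucleases that open or trim DNA held the largest rise of the list. Brip1, a helicase that binds Brca1, lay at 4.35, 4.72 and 4.31 in large colonies at passage 5 and at 7.26, 7.03 and 7.23 at passage 15. The change was 2.71 ± 0.0992 (SE, adjusted p = 1.54e-12), or 6.55-fold. The small colonies, treated throughout, lay at 4.49, 4.31 and 4.36 and then at 6.37, 6.58 and 6.50, a change of 2.09 ± 0.0992 (SE, adjusted p = 2.67e-11). Passage 15 arrays were high in both lines, with the large colonies above the small ones and no overlap.

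Exo1, which resects broken ends, was ordered the other way at passage 15. It read 4.92, 4.96 and 4.89 and then 6.96, 7.07 and 6.85 in large colonies, a change of 2.04 ± 0.0928 (SE, adjusted p = 2.28e-11). Treated small colonies read 4.90, 4.52 and 4.89 and then 7.21, 7.29 and 7.32, a change of 2.51 ± 0.0928 (SE, adjusted p = 1.11e-12), and these last 3 arrays were the highest of all. Blm, the helicase that takes apart joined recombination intermediates, rose by 1.53 and 1.47. Wrn, a helicase of the same family with an exonuclease domain, is among the other members and rose by only 0.35 in large colonies, from 6.74, 6.70 and 6.69 to 7.22, 7.03 and 6.91. Its treated small arrays went from 6.60, 6.49 and 6.44 to 6.68, 6.75 and 6.71, which left them at the level of untreated arrays of passage 5.

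All 4 genes of the Fanconi pathway, which removes crosslinks between strands, rose by at least 2-fold in both lines. Fancd2 encodes a subunit of the clamp that the pathway ubiquitinates. It went from 4.39, 4.21 and 4.37 to 6.61, 6.49 and 6.50 in large colonies, a change of 2.21 ± 0.0652 (SE, adjusted p = 1.22e-13). In treated small colonies it went from 4.23, 4.34 and 4.22 to 6.69, 6.67 and 6.78, a change of 2.45 ± 0.0652 (SE, adjusted p = 2.07e-14), the smallest adjusted p of any member in that comparison. The passages were far apart in every array of either line. Fanci, the other subunit of the clamp, rose by 1.68 and 1.91, and Fanca, of the core ligase complex, by 1.24 and 1.32.

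Fancb, an X-linked subunit of the core complex, differed between lines. Its large-colony arrays read 5.71, 5.69 and 5.56 at passage 5 and 6.97, 6.71 and 6.76 at passage 15, a change of 1.16 ± 0.0754 (SE, adjusted p = 2.36e-09). Its treated small arrays read 4.81, 4.82 and 4.66 and then 6.61, 6.76 and 6.68, a change of 1.92 ± 0.0754 (SE, adjusted p = 2.41e-12). The lines overlapped at passage 15 and were clearly apart at passage 5, where large colonies were high.

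Checkpoint genes, which stop the cycle when DNA is damaged, rose without exception, but only the 3 S-phase-coupled ones by 2-fold or more. Chek1 encodes the kinase that Atr activates. It read 5.63, 5.45 and 5.34 and then 7.27, 7.12 and 7.14 in large colonies, a change of 1.70 ± 0.0957 (SE, adjusted p = 3.64e-10), and 5.90, 5.93 and 5.75 and then 6.96, 7.25 and 7.15 in treated small ones, a change of 1.26 ± 0.0957 (SE, adjusted p = 1.19e-08). The lines overlapped at passage 15, and the large colonies had started lower. Clspn, the adaptor between these kinases, rose by 1.46 and 1.06, and Topbp1, an activator of Atr, by 1.12 and 1.17.

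Chek2, the kinase downstream of Atm, had the largest rise among the other members in large colonies. It lay at 6.47, 6.41 and 6.43 and then at 7.47, 7.18 and 7.18, a change of 0.84 ± 0.0816 (SE, adjusted p = 3.25e-07). Small colonies under PDGF-AB lay at 6.32, 6.29 and 6.11 and then at 6.83, 7.01 and 6.83, a change of 0.65 ± 0.0816 (SE, adjusted p = 4.72e-06). Passage 15 was high in both lines, and the large colonies were above the small ones. Atr rose by 0.48 and 0.60.

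Atm, the kinase that answers chromosome breaks, was scattered in large colonies at passage 5. Large colonies read 6.95, 6.24 and 6.58 at passage 5 and 7.06, 7.10 and 7.18 at passage 15, a change of 0.52 ± 0.129 (SE, adjusted p = 0.00376). Treated small colonies read 6.62, 6.43 and 6.25 and then 7.40, 7.43 and 7.41, a change of 0.98 ± 0.129 (SE, adjusted p = 8.25e-06). The first large-colony array at passage 5 lay near those of passage 15, and the other 2 well below.

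Both mismatch repair genes rose by less than 2-fold. Msh6, a mismatch recognition protein, was at 6.53, 6.52 and 6.34 and then at 7.46, 7.31 and 7.37 in large colonies, a change of 0.92 ± 0.0788 (SE, adjusted p = 7.73e-08). Treated small colonies were at 6.16, 5.87 and 6.08 and then at 6.52, 6.59 and 6.68, a change of 0.56 ± 0.0788 (SE, adjusted p = 1.7e-05), so that its treated arrays of passage 15 only reached the untreated arrays of passage 5. Pms2, which acts after mismatch recognition, was at 6.33, 6.05 and 6.24 and 6.96, 6.85 and 6.85 in large colonies and at 6.20, 6.31 and 6.18 and 6.53, 6.52 and 6.70 in treated small ones. Its changes were 0.68 ± 0.0847 (SE, adjusted p = 6.03e-06) and 0.35 ± 0.0847 (SE, adjusted p = 0.00247).

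End-joining genes did not move as a group. Xrcc5 and Xrcc6 encode the subunits of Ku, which binds broken ends first. Xrcc5 lay at 7.31, 7.23 and 7.16 in large colonies at passage 5 and at 7.54, 7.32 and 7.36 at passage 15, and its change of 0.17 ± 0.0827 (SE, adjusted p = 0.127) was not called. In treated small colonies it went from 6.84, 6.67 and 6.68 to 8.10, 8.37 and 8.10, a change of 1.46 ± 0.0827 (SE, adjusted p = 2.73e-10), or 2.75-fold. The treated arrays were thus the lowest of all at passage 5 and the highest of all at passage 15, with no overlap.

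Xrcc6, in contrast, rose in both lines. It went from 6.28, 6.19 and 6.24 to 6.99, 7.08 and 6.93 in large colonies, a change of 0.76 ± 0.0649 (SE, adjusted p = 6.72e-08), and from 6.53, 6.47 and 6.37 to 6.90, 7.09 and 7.02 in treated small ones, a change of 0.55 ± 0.0649 (SE, adjusted p = 2.55e-06). The lines overlapped at passage 15, near the level of untreated small colonies at passage 5. Prkdc, the kinase that Ku recruits, read 6.15, 5.58 and 5.96 and then 6.34, 6.33 and 6.46 in large colonies, a change of 0.47 ± 0.112 (SE, adjusted p = 0.00281). In treated small colonies it read 5.94, 5.95 and 5.93 and then 6.59, 6.56 and 6.51, a change of 0.62 ± 0.112 (SE, adjusted p = 0.000231).

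Lig4, the ligase that completes end joining, was the member that fell in both lines. Its arrays lay at 8.18, 8.28 and 8.20 in large colonies at passage 5 and at 7.78, 7.70 and 7.60 at passage 15, where it fell by 0.53 ± 0.0676 (SE, adjusted p = 8.43e-06). In treated small colonies they lay at 7.90, 7.74 and 7.71 and then at 7.51, 7.60 and 7.67, where it fell by 0.19 ± 0.0676 (SE, adjusted p = 0.0311), the call that ended without single arrays as given above. Large colonies at passage 5 were the highest group, and the other 4 lay close together.

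**Figure D2:**
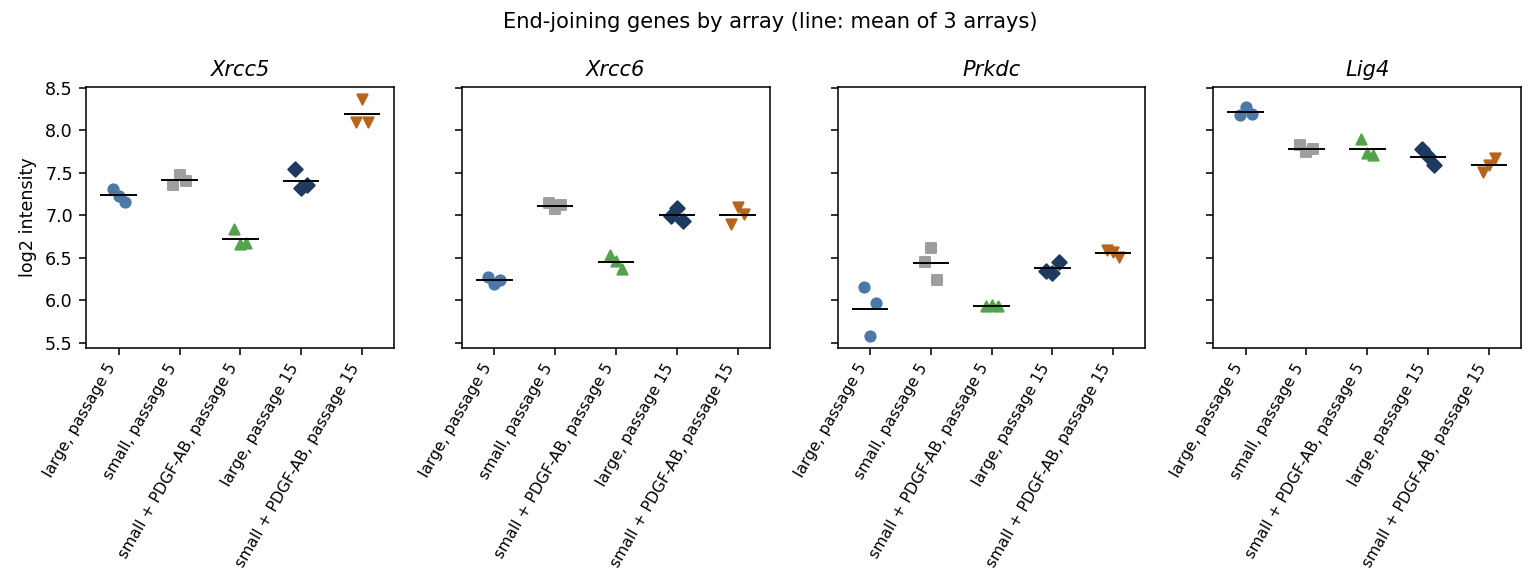
Log2 intensity (vertical axis) of Xrcc5, Xrcc6, Prkdc and Lig4 in the 5 groups (horizontal axis), with 1 point per array and a line at the mean of 3 arrays. Xrcc5 is lowest in treated small colonies at passage 5 and highest in them at passage 15, while Lig4 is highest in large colonies at passage 5.

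Of 5 genes of base excision and single-strand break repair 4 rose in each line, all by less than 2-fold, and Ogg1 was not called. Parp1, the sensor of strand breaks, went from 6.82, 6.91 and 6.80 to 7.87, 7.60 and 7.58 in large colonies, a change of 0.84 ± 0.0825 (SE, adjusted p = 4.05e-07), and from 7.07, 7.0 and 6.90 to 7.93, 7.85 and 7.97 in treated small ones, a change of 0.93 ± 0.0825 (SE, adjusted p = 7.73e-08). Passage 15 was above passage 5 in every array. Xrcc1, the scaffold of this pathway, rose by 0.39 and 0.38, and its ligase partner Lig3 by 0.29 and 0.24.

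Ung, which removes uracil from DNA, had the smallest rise among the S-phase-coupled members. It lay at 5.49, 5.71 and 5.77 and then at 6.02, 6.28 and 6.23 in large colonies, a change of 0.52 ± 0.0798 (SE, adjusted p = 5.68e-05), and at 5.67, 5.66 and 5.71 and then at 6.29, 6.13 and 6.15 in treated small ones, a change of 0.51 ± 0.0798 (SE, adjusted p = 5.01e-05). The passages were separate in both lines, and the lines overlapped at each passage.

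Ogg1, which removes oxidised guanine, lay at 7.47, 7.54 and 7.46 in large colonies at passage 5 and at 7.44, 7.71 and 7.28 at passage 15, at 7.59, 7.44 and 7.31 in treated small colonies at passage 5 and at 7.27, 7.44 and 7.44 at passage 15. The passages overlapped in both lines, and its changes of -0.018 ± 0.0966 (SE, adjusted p = 0.907) and -0.064 ± 0.0966 (SE, adjusted p = 0.624) were not called. The third large-colony array at passage 15 was below, and the second above, every large-colony array of passage 5.

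Nucleotide excision genes, which cut out bulky lesions, moved least, with a median of 0.024 in large and 0.11 in treated small colonies. Xpa, which verifies the lesion, lay at 7.82, 7.85 and 7.75 in large colonies at passage 5 and at 7.91, 7.75 and 7.84 at passage 15, an uncalled change of 0.024 ± 0.0669 (SE, adjusted p = 0.819). In treated small colonies it lay at 7.84, 7.88 and 7.73 and then at 8.05, 7.93 and 8.10, a change of 0.21 ± 0.0669 (SE, adjusted p = 0.0167) that missed the threshold without single arrays, as given above. Ercc1, a subunit of the nuclease that cuts beside the lesion, had uncalled changes of 0.15 ± 0.069 (SE, adjusted p = 0.11) and 0.11 ± 0.069 (SE, adjusted p = 0.209). Xpc, the damage sensor, fell by 0.42 ± 0.065 (SE, adjusted p = 5.92e-05) in large colonies, and its change in treated small ones was -0.098 ± 0.065 (SE, adjusted p = 0.235) and not called.

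At passage 5, untreated large colonies differed from untreated small ones in 14 members, and 11 of these were lower in large colonies. Among the S-phase-coupled members Fancb was higher and Rad51ap1, Fancd2, Chek1, Brip1, Blm and Brca1 were lower, with a median of -0.16 over the class. Among the others Lig4 and Xpc were higher and Xrcc6, Prkdc, Parp1, Atm and Lig3 were lower, with a median of -0.11. Over all genes 18.2% were called higher and 18.0% lower in large colonies, with a median of 0.031. Among genes of at least median level, where 17 of the 18 other members lie, 2918 of 9969 were higher and 3231 lower.

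Xrcc6 had the largest difference of any member at passage 5. Its untreated small arrays were 7.15, 7.08 and 7.12 against the large-colony arrays already given, a change of -0.88 ± 0.0649 (SE, adjusted p = 1.13e-08). Every large-colony array was well below every small-colony array. Genes of at least median level on chromosome 15, where Xrcc6 lies, were shifted by -0.32 at the median against all such genes in this comparison, and for chromosome 16, which holds Prkdc, the shift was -0.20. Chromosome 9, with Atm and Chek1, was shifted by -0.16, and chromosome 6, with Xpc, Rad51ap1 and Fancd2, by 0.12. The part of these shifts in the differences was not tested.

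Prkdc read 6.46, 6.61 and 6.24 in untreated small colonies, and large colonies were lower by a change of -0.54 ± 0.112 (SE, adjusted p = 0.00108). Parp1 read 7.31, 7.40 and 7.16, with a change of -0.44 ± 0.0825 (SE, adjusted p = 0.000402), and Rad51ap1 5.04, 5.20 and 5.11, with a change of -0.62 ± 0.114 (SE, adjusted p = 0.000345). Fancd2 read 4.81, 4.69 and 4.79, with a change of -0.44 ± 0.0652 (SE, adjusted p = 3.85e-05). In these 4 genes the large-colony arrays were all lower than the small-colony arrays.

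Fancb went against its class, with 5.24, 5.18 and 5.12 in untreated small colonies and higher values in every large-colony array, a change of 0.47 ± 0.0754 (SE, adjusted p = 8.11e-05). The large-colony arrays of Lig4 were also all higher than its small-colony arrays of 7.83, 7.75 and 7.78, with a change of 0.43 ± 0.0676 (SE, adjusted p = 6.71e-05). Xpc was higher in large colonies by 0.37. Chek1, at 5.94, 5.84 and 5.64 in small colonies, was lower in large ones by a change of -0.33 ± 0.0957 (SE, adjusted p = 0.0111).

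Of these 14 calls 5 ended when 1 array was left out. They were Chek1 without large passage 5 replicate 3 or untreated small passage 5 replicate 1 (-0.27 to -0.26), Brip1 without large passage 5 replicate 1 or 3 or untreated small passage 5 replicate 3 (-0.29 to -0.25), and Brca1 without large passage 5 replicate 1 or 2 or untreated small passage 5 replicate 2 or 3 (-0.27 to -0.23). The same held for Blm without large passage 5 replicate 2 or untreated small passage 5 replicate 2 or 3 (-0.28 to -0.16) and for Atm without large passage 5 replicate 2 or 3 or untreated small passage 5 replicate 2 (-0.38 to -0.22). Without untreated small passage 5 replicate 3 the S-phase-coupled members called lower were 3 in place of 6. Among the alternatives of the closing section, array weights also ended the call of Brca1 (-0.23). Fitting the compared arrays alone ended those of Blm and Atm.

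PDGF-AB in small colonies at passage 5 went with lower levels in both classes. No S-phase-coupled member was higher and 10 of 18 were lower in treated colonies, with a median of -0.33. Ercc1 was higher among the others, and Xrcc5, Xrcc6, Atm, Prkdc, Lig3, Parp1, Chek2 and Wrn were lower, with a median of -0.13. Over all genes 10.7% were called higher and 18.2% lower, with a median of 0.016. Centring the arrays moved that split from 2143 higher and 3629 lower to 2927 and 3196. Among genes of at least median level, where 17 of the 18 other members lie, 1663 of 9969 were higher and 3580 lower. The median change of these genes was -0.074. This comparison and the one by size share the untreated small arrays, so members that were high in those arrays were low in both comparisons.

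The treated arrays were given above with the passage changes, and the untreated ones of the genes that changed most follow here. Rad51ap1, from 5.04, 5.20 and 5.11 untreated, was lower by a change of -0.73 ± 0.114 (SE, adjusted p = 0.000136), and Fancd2 by -0.50 ± 0.0652 (SE, adjusted p = 2.32e-05). The untreated and treated arrays of both genes did not overlap. Msh6 read 6.52, 6.58 and 6.47 untreated and changed by -0.48 ± 0.0788 (SE, adjusted p = 0.000195), and Brca2 read 5.56, 5.6 and 5.37 untreated and changed by -0.47 ± 0.108 (SE, adjusted p = 0.00321). Fancb, also at its lowest in treated colonies, changed by -0.41 ± 0.0754 (SE, adjusted p = 0.000553).

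Both Ku subunits were lower with PDGF-AB. Xrcc5 read 7.36, 7.48 and 7.41 untreated and changed by -0.69 ± 0.0827 (SE, adjusted p = 1e-05), and Xrcc6 changed by -0.66 ± 0.0649 (SE, adjusted p = 1.1e-06) from the untreated arrays listed above. Prkdc changed by -0.50 ± 0.112 (SE, adjusted p = 0.00294). All treated arrays of these 3 genes were below all untreated ones. The shift of chromosome 16, with Prkdc, was again -0.20 and that of chromosome 15, with Xrcc6, was -0.13, and their part was not tested.

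Atm read 6.92, 7.07 and 6.95 untreated and changed by -0.55 ± 0.129 (SE, adjusted p = 0.004), with all treated arrays lower. Lig3 changed by -0.47 ± 0.062 (SE, adjusted p = 2.36e-05). Ercc1 was the member that was higher with PDGF-AB, by 0.36 ± 0.069 (SE, adjusted p = 0.000894), and genes of chromosome 7, where it lies with Blm and Fanci, were shifted by 0.18. Chek1, with 5.94, 5.84 and 5.64 untreated and 5.90, 5.93 and 5.75 treated, overlapped between the groups.

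Of these 19 calls 6 ended without single arrays. They were Blm without untreated small passage 5 replicate 2 or treated small passage 5 replicate 2 or 3 (-0.31 to -0.28), Exo1 without untreated small passage 5 replicate 2 or treated small passage 5 replicate 2 (-0.28 to -0.22) and Fanci without untreated small passage 5 replicate 3 or treated small passage 5 replicate 2 or 3 (-0.32 to -0.27) among the S-phase-coupled members. Among the others they were Chek2 without untreated small passage 5 replicate 1 or 2 or treated small passage 5 replicate 2 or 3 (-0.27 to -0.18), Parp1 without untreated small passage 5 replicate 2 or treated small passage 5 replicate 3 (-0.25 to -0.24) and Wrn without untreated small passage 5 replicate 2 or treated small passage 5 replicate 2 or 3 (-0.22 to -0.18). All other calls with PDGF-AB were kept in each of the 6 fits without 1 of these arrays.

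**Figure D3:**
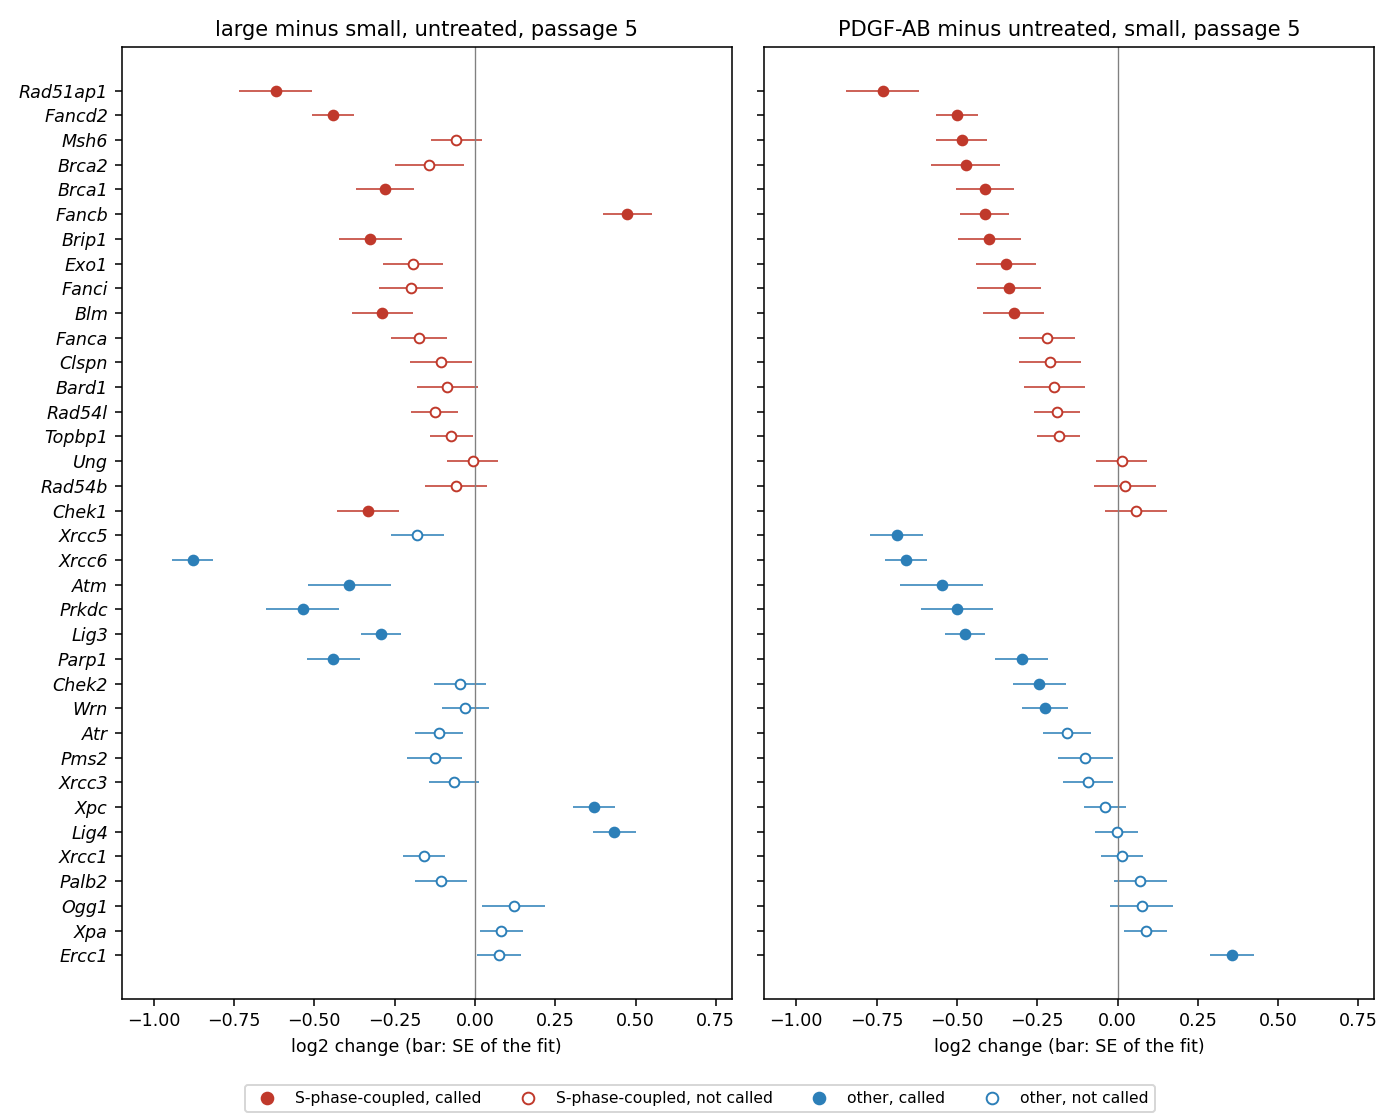
Log2 change (horizontal axes, bars: SE of the fit) of each of the 36 measured genes (vertical axis) for large minus small untreated colonies (left) and for PDGF-AB minus untreated small colonies (right) at passage 5. Filled points are called, open points are not, and both panels share the 3 untreated small arrays. With PDGF-AB 18 members lie lower and called and Ercc1 higher, while Fancb, Lig4 and Xpc are higher in large colonies.

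At passage 15 treated small colonies were set against untreated large ones, so size, PDGF-AB and earlier history cannot be told apart. Of the S-phase-coupled members Exo1, Rad54b and Fancd2 were higher and Msh6, Brca1, Brip1, Rad51ap1 and Clspn lower in small colonies, with a median of -0.061. Of the others Xrcc5, Ercc1, Parp1, Xrcc3, Xpa and Xrcc1 were higher and Chek2, Wrn, Pms2 and Lig3 lower, with a median of 0.042. The background was 29.2% of all genes called higher and 24.2% lower, with a median of 0.069. That split moved with the setting, from 5813 higher and 4824 lower to 6507 and 4593 after centring, to 4038 and 4597 with cyclic loess, and to 2499 and 4330 among the 9969 genes of at least median level, so the members' shares are not read against it.

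The sizes were largest for Msh6, lower in small colonies by a change of -0.78 ± 0.0788 (SE, adjusted p = 4.23e-07), and for Xrcc5, higher by 0.78 ± 0.0827 (SE, adjusted p = 7.56e-07). Brca1 changed by -0.73 ± 0.0907 (SE, adjusted p = 4.82e-06), Brip1 by -0.69 ± 0.0992 (SE, adjusted p = 2.44e-05) and Rad51ap1 by -0.66 ± 0.114 (SE, adjusted p = 0.000152). Chek2 changed by -0.39 ± 0.0816 (SE, adjusted p = 0.000895) and Wrn by -0.34 ± 0.0726 (SE, adjusted p = 0.000984). The arrays of the lines did not overlap in any of these 7 genes. Genes of chromosome 17, which holds Msh6, were shifted by -0.31 at the median, those of chromosome 1, with Xrcc5, Parp1 and Exo1, by 0.17, and those of chromosome 4, with Clspn, Rad54b and Xpa, by 0.23. Chromosome 12, with Xrcc3, was shifted by 0.33, more than the difference of Xrcc3 itself, 0.21, and the shift of chromosome 4 was above the difference of Xpa, 0.19. The part of these shifts was not tested.

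Every higher call but those of Xrcc5, Ercc1 and Exo1 ended without single arrays. Among the S-phase-coupled members these were Fancd2 without large passage 15 replicate 2 or 3 or treated small passage 15 replicate 3 (0.15 to 0.17) and Rad54b without large passage 15 replicate 1 or 3 or treated small passage 15 replicate 2 (0.21 to 0.27). Among the others they were Parp1 without large passage 15 replicate 2 or 3 or treated small passage 15 replicate 1 or 3 (0.18 to 0.23), Xpa without large passage 15 replicate 2 or treated small passage 15 replicate 1 or 3 (0.15 to 0.18), Xrcc3 without large passage 15 replicate 2 or treated small passage 15 replicate 2 or 3 (0.13 to 0.22) and Xrcc1 without large passage 15 replicate 1 or 3 or treated small passage 15 replicate 1 or 3 (0.10 to 0.17). With cyclic loess between arrays, no S-phase-coupled member was called higher, and the lower call of Lig3 ended (-0.14). Trend and robust moderation, an alternative of the closing section, ended the calls of Fancd2 and Xrcc1. That of Xrcc1 also ended with the compared arrays alone and with the replicate block.

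The passage changes of the lines were also set against each other, the change in large colonies being taken from that in treated small ones. The difference was called higher for Fancb and Exo1 and lower for Brip1, Brca1, Rad51ap1, Chek1, Clspn and Msh6 among the S-phase-coupled members. It was called higher for Xrcc5, Lig4 and Xpc and lower for Pms2 among the others. Over all genes 18.6% were called higher and 15.9% lower. Xrcc5 stood out in size, with 1.29 ± 0.117 (SE, adjusted p = 2.7e-07), and chromosome 1 was shifted by 0.17, again without a test of its part.

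Fancb rose more in treated small colonies, by 0.76 ± 0.107 (SE, adjusted p = 3.66e-05), and so did Exo1, by 0.47 ± 0.131 (SE, adjusted p = 0.0115). Brip1, Brca1 and Rad51ap1 rose in both lines but less in small colonies, by -0.62 ± 0.14 (SE, adjusted p = 0.00289), -0.60 ± 0.128 (SE, adjusted p = 0.0018) and -0.55 ± 0.161 (SE, adjusted p = 0.0149). Lig4 and Xpc fell less in small colonies, by 0.34 ± 0.0957 (SE, adjusted p = 0.0122) and 0.32 ± 0.0919 (SE, adjusted p = 0.0126), Xpc without a called change there. The calls of Chek1 without large passage 5 replicate 3 (-0.38) and Clspn without large passage 15 replicate 1 or large passage 5 replicate 3 or treated small passage 15 replicate 3 or treated small passage 5 replicate 2 (-0.37 to -0.29) ended in these fits, as did those of Msh6 without large passage 15 replicate 1 or large passage 5 replicate 3 or treated small passage 15 replicate 1 or treated small passage 5 replicate 1 (-0.32 to -0.29). Pms2 without large passage 15 replicate 1 or 2 or 3 or large passage 5 replicate 2 or 3 or treated small passage 15 replicate 1 or 2 or treated small passage 5 replicate 1 or 2 or 3 (-0.35 to -0.25) was lost as well, in 10 of 12 such fits.

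**Figure D4:**
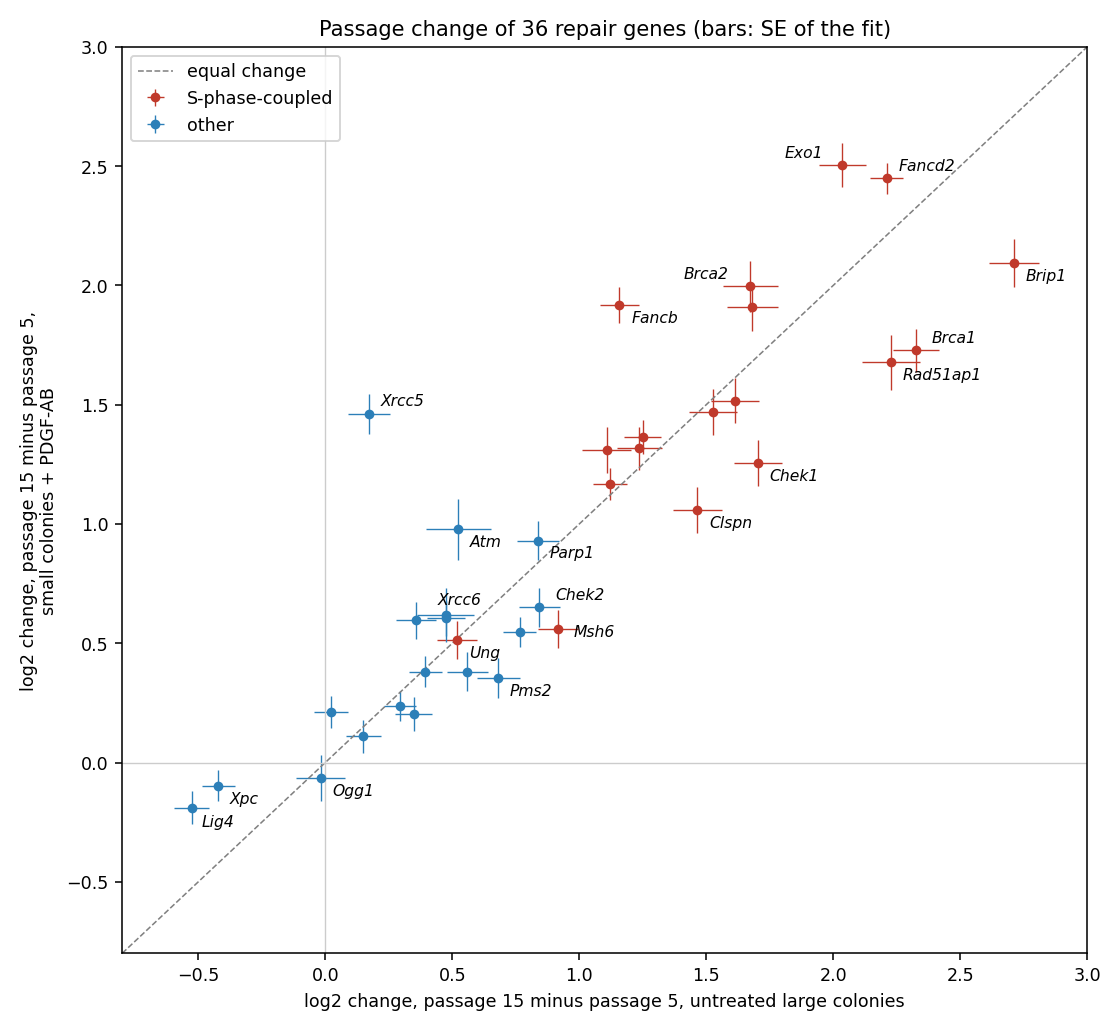
Log2 change from passage 5 to passage 15 of the 36 measured repair genes in untreated large colonies (horizontal axis) and in treated small colonies (vertical axis), with bars for the SE of the fit and a dashed line of equal change. All S-phase-coupled genes are above 0.5 on both axes, Xrcc5 and Fancb lie above the line, and Brip1, Brca1, Rad51ap1 and Chek1 below it.

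Repair genes outside the list were counted in the same classes. Of 14 measured S-phase-coupled repair genes that were no members, 14 rose with passage in large and 13 in treated small colonies, with medians of 1.30 and 1.08. The 4 with the smallest adjusted p in large colonies were Neil3, a glycosylase, with 2.21, Parpbp with 2.18, the recombination gene Rad51c with 1.89 and the resolvase Gen1 with 2.18. Of 49 other repair genes outside the list 22 rose and 6 fell in large colonies, with a median of 0.20. In treated small colonies 17 of them rose and 8 fell, with a median of 0.026. Over all genes 17.4% rose and 18.7% fell in large colonies, and 24.6% and 21.4% in treated small ones. Among the 9969 genes of at least median level, where 40 of these 49 lie, 3164 rose and 3091 fell in large colonies. In treated small colonies 3172 of them rose and 3831 fell. In large colonies Mdc1 changed by 0.93, Fancl by 0.80, Parp2 by 0.74 and Ercc5, a nuclease of nucleotide excision, by -0.61.

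At passage 5, 1 of the 14 was higher and 6 were lower in large than in small colonies, and 8 were lower with PDGF-AB. Of the 49 others 5 were higher and 22 lower by size, and 6 were higher and 19 lower with PDGF-AB. Over all genes 18.2% were called higher and 18.0% lower by size, and 10.7% and 18.2% with PDGF-AB. Of the 49 others 40 lie at or above the median level. Among the 9969 genes of that level 2918 were higher and 3231 lower by size, and 1663 and 3580 with PDGF-AB. At passage 15, 1 of the 14 was higher and 5 lower in treated small than in large colonies, against 10 and 14 of the 49. There 29.2% of all genes were called higher and 24.2% lower, a split that moved with the setting as given above.

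Genes of proliferation moved with the members. All 20 measured replication genes rose with passage in both lines, at a median of 2.04 in large and 2.21 in treated small colonies, and all 14 measured mitotic genes rose at medians of 2.95 and 3.41. Every gene of both lists had its 6 passage 15 arrays above its 9 passage 5 arrays. Mki67, a marker of cycling cells, rose by 2.77 in large and by 3.36 in treated small colonies.

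The mean over the 18 S-phase-coupled members was 5.17 to 5.23 in large, 5.33 to 5.40 in untreated small and 5.02 to 5.12 in treated small colonies at passage 5, and 6.72 to 6.85 in large and 6.61 to 6.63 in treated small ones at passage 15. The mean over the 14 mitotic genes ran from 5.28 to 5.42, 6.53 to 6.56 and 5.27 to 5.42 at passage 5, and from 8.23 to 8.33 and 8.67 to 8.81 at passage 15. At passage 5 untreated small colonies were thus highest in both means, with no overlap. By size the mitotic genes had a median change of -1.21 and replication genes of -0.43, and with PDGF-AB -1.23 and -0.73, against -0.16 and -0.33 for the S-phase-coupled members.

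At passage 15 the orders parted. Treated small colonies were below large ones in the mean over S-phase-coupled members, of which 3 were called higher, 5 lower and 10 not called. They were above large ones in the mean over mitotic genes, 9 of which were called higher and none lower. The split over all genes moved with the setting here, as given above, so these orders are descriptions. Among replication genes 2 were higher and 12 lower, with Ccne1, a cyclin of S phase entry, at -1.06 and Ccne2 at -0.86. The part of the share of cycling cells in the changes of the members was not tested.

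**Figure D5:**
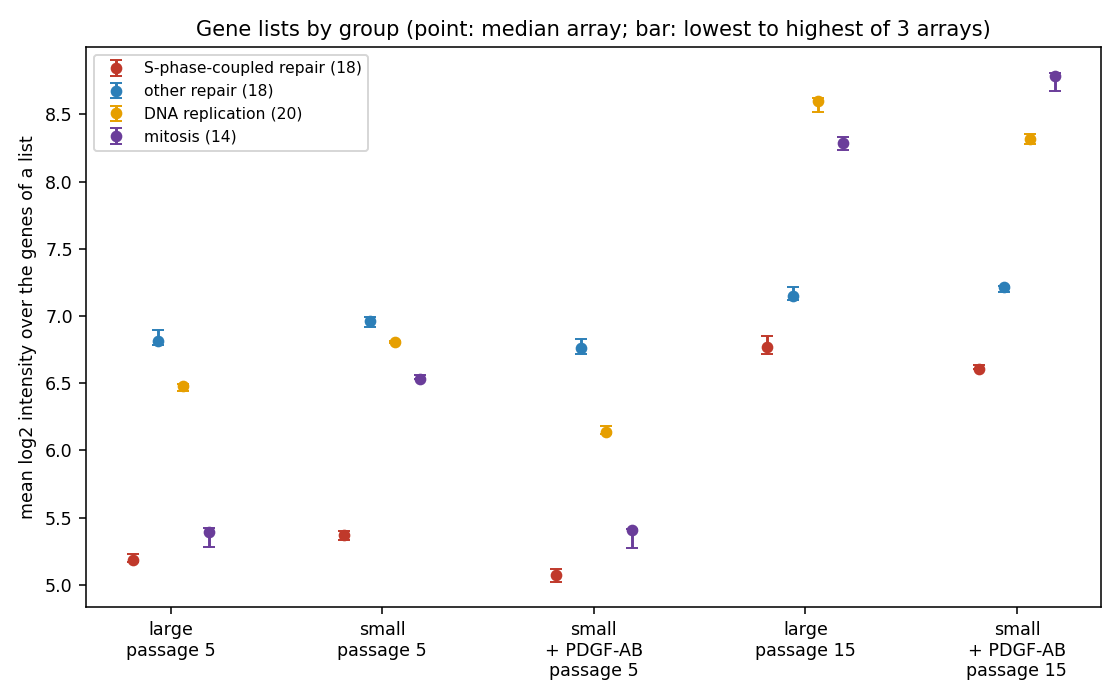
Mean log2 intensity over the genes of 4 lists (vertical axis; S-phase-coupled repair 18 genes, other repair 18, DNA replication 20, mitosis 14) in the 5 groups (horizontal axis). Points are the median array and bars run from the lowest to the highest of 3 arrays. All lists are highest at passage 15, and the mean of the other repair genes moves least.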

How the data were processed

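RNA of 15 samples was labelled for Affymetrix whole-transcript arrays, per the labels. The deposited values are log2 intensities of 28853 probe sets as the authors made them, and RMA and limma are named in the submitters' processing notes without version or role. Of the probe sets 21789 named 1 gene symbol, 1621 several, and the others are unnamed here; the brightest probe set per gene left 19938 genes. A model with 5 groups and no intercept was fitted with limma 3.58.1 in R 4.3.3 (10 residual and 5.8 prior degrees of freedom), with 6 comparisons, 2-sided tests, Benjamini-Hochberg adjustment over all genes and a threshold of 0.05, and was tested on simulated data. For arrays, their number, 3 per group, limits precision. Members, classes and lists were chosen with earlier results of these data known, so no list was tested as a whole. Per-array values are printed for the 4 S-phase-coupled and 3 other members with the largest called change in each comparison and the 2 of each class with the smallest change in large colonies; of other lists, the 4 genes with the smallest adjusted p, or fewer. Alternatives are given in the closing section. Promoters are RefSeq's, of GRCm38.p6.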

Additional observations from a re-analysis of the deposited data

Results flagged for a closer look

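For 12 members the change from passage 5 to passage 15 differed between treated small and untreated large colonies by a test of the difference itself, limma's contrast of the 2 changes adjusted over all genes. The 5 higher and 7 lower calls among 36 members stand beside 18.6% and 15.9% of all genes, so their share is near that of all genes. Small colonies changed more upward in Xrcc5, by 1.29 (adjusted p = 2.7e-07), Fancb, by 0.76 (adjusted p = 3.66e-05), and Exo1, by 0.47 (adjusted p = 0.0115). They fell less than large ones in Lig4, by 0.34 (adjusted p = 0.0122), and Xpc, by 0.32 (adjusted p = 0.0126), Xpc without a called change in small colonies. They changed less upward in Brip1, by -0.62 (adjusted p = 0.00289), Brca1, by -0.60 (adjusted p = 0.0018), Rad51ap1, by -0.55 (adjusted p = 0.0149), and Chek1, by -0.45 (adjusted p = 0.0177). The same held for Clspn, by -0.41 (adjusted p = 0.0302), Msh6, by -0.36 (adjusted p = 0.0207), and Pms2, by -0.33 (adjusted p = 0.0455). Colony size and PDGF-AB differ together between the lines. Groups of 3 arrays were not searched for single outlying arrays.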

How the results depend on the processing

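The alternatives were centring, cyclic loess, leaving out genes below the median level, averaging probe sets, fitting the compared arrays alone, trend and robust moderation, array weights, a replicate block, leaving borderline members out of the classes, and leaving out each array. In every one of them all S-phase-coupled members in the fit rose with passage in both lines; with dim genes left out these were only 3 of 18, since 15 were below the median level.

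With dim genes left out, the other counts of S-phase-coupled members were 0 higher and 1 lower at passage 15, 0 higher and 2 lower for the difference of passage changes, 2 lower with PDGF-AB, and 0 higher and 1 lower by size, all from 3 genes; 2 others had a lower difference. With cyclic loess, S-phase-coupled members called higher were 0 at passage 15 and 1 for the difference, and 2 others were higher with PDGF-AB. Without borderline members, 1 was higher for the difference and 0 by size. Array weights gave 5 others higher and 2 lower for the difference. With the compared arrays alone, 0 others fell with passage in treated small colonies. The causes of these shifts were not tested, beyond the smaller number of genes left.

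Without single arrays, counts of other members at passage 15 ranged from 2 to 5 higher and of S-phase-coupled members from 1 to 3 higher. For the difference, others called lower ranged from 0 to 1 and S-phase-coupled ones from 3 to 6. With PDGF-AB, others called lower ranged from 5 to 9, by size S-phase-coupled ones called lower from 3 to 5, and others falling with passage in treated small colonies from 0 to 1.

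Replicate numbers did not meet the rule for pairing. Same-numbered arrays of large colonies correlated at 0.208, 0.0984 and 0.202 after group means were taken off, and 6 of 6 matched best with their own number; in the other comparisons the lowest correlation was 0.0026 or less. With the replicate block 0 others were lower for the difference, Pms2 being lost, and every other count of members stayed within 1.5 times.

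Of the uncalled changes printed, Xpa in large colonies was -0.0247 after centring and -0.0170 to 0.0673 without single arrays. Ogg1 ranged from -0.135 to 0.0790 in large and from -0.131 to 0.00878 in treated small colonies without single arrays, so neither has a direction. The limits are the 3 arrays per group, the dimness of most S-phase-coupled probe sets and the lack of untreated small colonies at passage 15.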

Other observations

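Regulators of the S-phase transcription programme were not uniform. Of 15 genes of the E2F and RB families and their partners, 10 rose and 1 fell with passage in large colonies, and 8 rose and 3 fell in treated small ones. The shares of all genes were 17.4% and 18.7% in large colonies and 24.6% and 21.4% in treated small ones. Of the 9969 genes of at least median level, where 13 of the 15 lie, 3164 rose and 3091 fell in large colonies. In treated small colonies 3172 of these rose and 3831 fell, so the falls are not above background. E2f8, an atypical repressor of the family, changed by 3.10 and 2.89, E2f7 by 2.44 and 2.02, and Foxm1, a regulator of mitotic genes, by 2.10 and 2.37. Rbl1, an RB relative, changed by 1.57 and 1.82. The largest difference between the passage changes of the lines in this list was that of E2f6, a repressor without an RB-binding domain, at -1.63, with adjusted p = 7.21e-10 from limma. Rb1 differed by -0.72 there.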
